A study of Mus musculus with 6 samples.

Results

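The nuclear-encoded subunits of the respiratory chain and ATP synthase were followed in mouse mast cells 4 h after ionomycin. Members were the array rows whose platform annotation gave 1 gene symbol of the Nduf (letters a, b, c, s or v and a number), Sdha to Sdhd, Uqcr, Cox4 to Cox8 or Atp5 families. Symbols with -ps, a mark of pseudogenes, were left out. For each gene the row with the highest mean signal was used. This gave 81 genes of 30102 genes on the array, 32 in complex I, 4 in complex II, 8 in complex III, 19 in complex IV and 18 in complex V, the ATP synthase. The symbol Ndufa4 was counted with complex IV, of which its protein is now known to be a subunit, and the symbol patterns also took in Cox7a2l, a supercomplex assembly factor, and Atp5sl, which is related to complex I assembly.

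The respiratory chain sits in the inner mitochondrial membrane. Complexes I and II pass electrons from NADH and succinate to ubiquinone, complex III passes them to cytochrome c and complex IV to oxygen, and the proton gradient built on the way drives ATP synthesis by complex V. Most subunits are encoded in the nucleus and a small core in mitochondrial DNA, so that assembly needs both genomes, and complex II is the only complex encoded wholly in the nucleus. Mast cells draw on mitochondrial ATP and on mitochondrial calcium uptake when they degranulate.

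The cells were bone marrow-derived mast cells (BMMCs) of C57BL/6J mice, a primary culture matured for 6 weeks with interleukin 3 and with supernatant containing stem cell factor. The ionomycin group was held for 1 h in Tyrode's buffer with 1 µg/mL ionomycin, an ionophore that carries calcium across membranes, then washed and returned to culture medium for 3 h. The naive group had the same buffer without ionomycin and the same return to medium. Each group had 3 arrays with replicate numbers 1 to 3; the labels do not say whether these were separate cultures or animals, so every p-value reflects only how these 3 arrays a group vary, and that variation may be technical. Of 9 mast cell marker genes, among them Kit, Fcer1a and Cpa3, all 9 were above background, and 0 passed the test between the groups. Their log2 differences, ionomycin minus naive, ran from -0.62 to 1.04. For 4 of them every ionomycin array lay below every naive array, 44.4% against 7.31% of all genes. For 1 every ionomycin array lay above, 11.1% against 18.9%. The summed linear signal of the 9 ran between 80934 and 82113 in ionomycin arrays and between 84433 and 86314 in naive arrays. Background was set at a log2 signal of 6.05, the 95th percentile of the mean signals of 1771 genes of olfactory, vomeronasal, taste and trace amine receptors, which serve smell and taste. Of the 81 subunit genes 79 were above it, all but Cox7b2 and Cox8b.

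In both groups the array numbered 1 differed most from the rest. Array-to-array correlations over all genes ran between 0.980 and 0.998, and the deviations of the ionomycin and the naive replicate 1 arrays from their group means correlated at 0.711 across genes (genes are not independent replicates). The array labels give no batch. Summed marker signals of basophils and macrophages, cell types that can grow in the same cultures, also differed in these arrays. All 3 basophil markers measured were above background, 2 of the 3, Mcpt8 and Prss34, were higher in both replicate 1 arrays, and their summed linear signal was 5293, 3091 and 3075 in ionomycin replicates 1, 2 and 3 and 5335, 3627 and 3328 in naive replicates 1, 2 and 3. The 5 macrophage markers, all above background, summed to 2573, 3790 and 3353 in ionomycin arrays and 2374, 4933 and 4444 in naive arrays. The sum was lowest in replicate 1 of each group, but most single markers did not follow it. In both groups 3 of the 5 were higher in replicate 1 than in the mean of replicates 2 and 3, and 1 was lower. Results are therefore also given with the replicate number as a block and without both replicate 1 arrays. Pairs of arrays below follow the replicate numbers of the labels alone, and the values show no pairing particular to number 2 or 3.

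After 4 h, 0 of the 81 subunit genes were called higher and 0 lower in ionomycin-treated cells (limma, Benjamini-Hochberg adjustment over 30102 genes, threshold 0.05). Among all genes 105 were called, a background of 0.349%, made of 0.289% higher and 0.0598% lower. Before adjustment, with p under 0.05, 1 subunit was higher, Cox8c, and 0 were lower, against 10.2% of all genes higher and 5.44% lower. With the replicate number as a block 0 subunits were called in either direction, against 0.505% of all genes, and before adjustment 3 were higher and 5 lower, against 16.0% and 9.41% of all genes. Without both replicate 1 arrays 0 were called, against 2.83% of all genes, and before adjustment 1 was higher and 6 lower, against 22.2% of all genes in either direction. A block that separates only replicate 1 from the other numbers called 0 subunits and 4.72% of all genes. The smallest adjusted p among subunits was 0.307 in the fit without a block and 0.0988 with it. When limma weighted the arrays by their spread, 3 subunits, Sdha, Ndufs3 and Ndufs7, were called lower and 0 higher; that setting called 12.9% of all genes, with 5.49% lower.

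The differences between the groups were small on the log2 scale. They ran from -0.27 for Ndufa9 to 0.30 for Cox6a2, and 53 of the 81 were under 0.1 in size. The median difference of the subunits was 0.00054, against 0.05 for all genes. Of the subunits 41 were positive and 40 negative, whereas 64.6% of all genes were positive and 35.4% negative. Of genes above background, as 79 of the subunits were, 58.7% were positive and 41.3% negative. The median size of a difference, whatever its sign, was 0.07 for subunits and 0.11 for all genes. The 95% interval of the difference lay within 1 log2 unit, a 2-fold change either way, for 81 of 81 subunits. It lay within 0.5 log2 units for 66, or 81.5%. Among all genes 94.9% lay within 1 log2 unit and 78.1% within 0.5. Among genes above background 92.7% and 69.4% did. These intervals rest on 3 arrays a group, the replicate 1 arrays included.

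**Figure D1:**
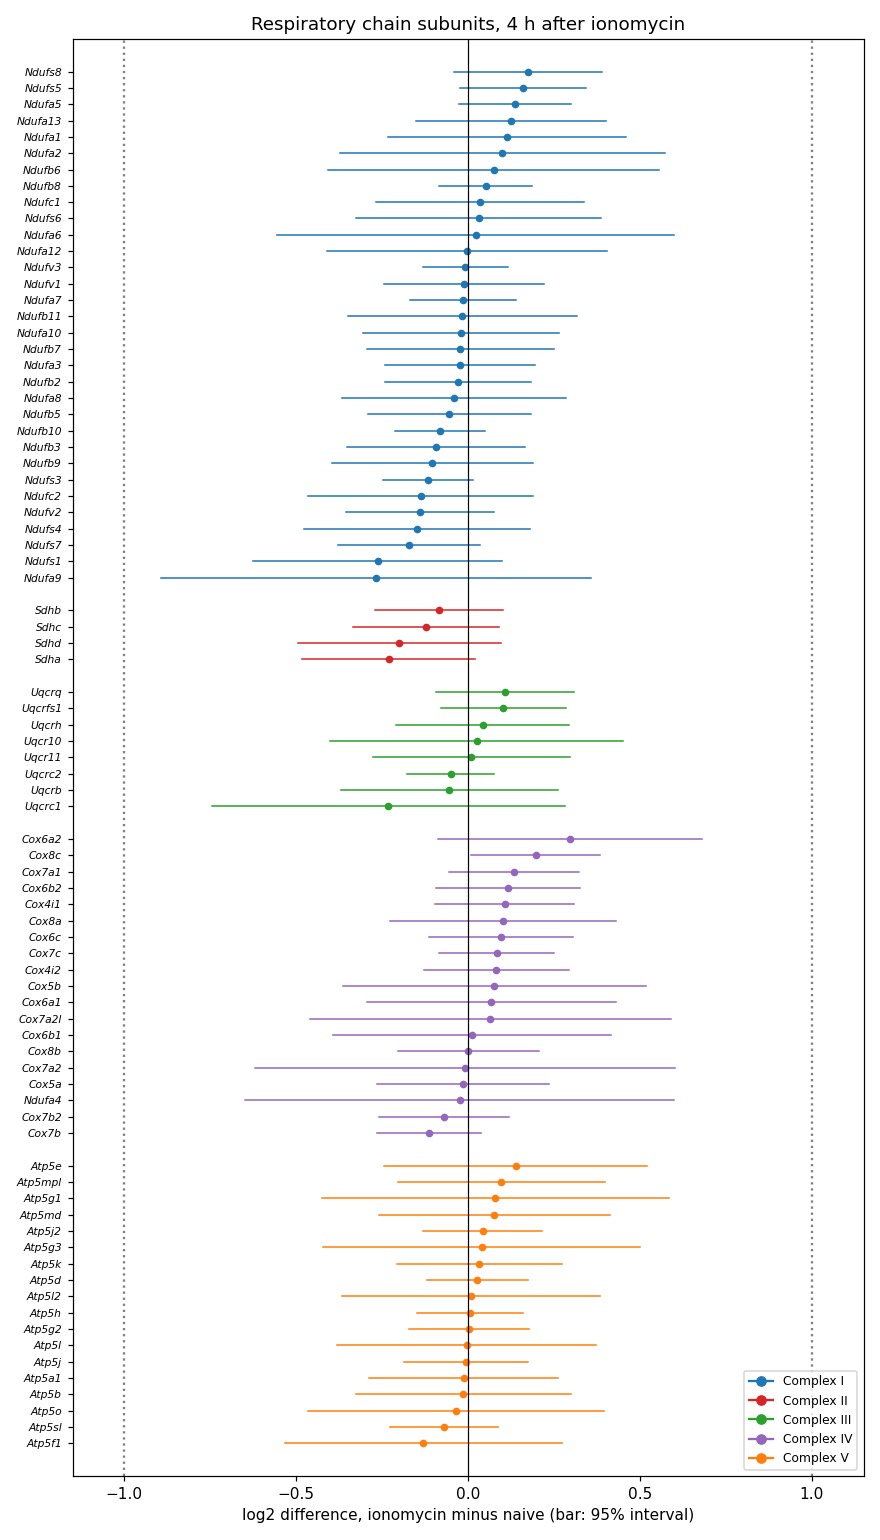
Log2 difference, ionomycin minus naive, of each of the 81 subunit genes, grouped by complex and ordered within it. Points are differences of group means of 3 arrays each, bars their 95% intervals from limma, and dotted lines mark a 2-fold change either way. All intervals lie inside those lines, and the interval of 1 gene, Cox8c, leaves out 0.

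Counted by arrays, the ionomycin values lay above every naive value for 3 subunits, Ndufa5, Ndufs5 and Cox8c, which is 3.70% of the subunits against 18.9% of all genes. They lay below every naive value for 4, Ndufb10, Ndufs3, Uqcrc2 and Cox7b, or 4.94% against 7.31%. For Uqcrc2 the highest ionomycin array and the lowest naive array both rounded to 10.31, and for Cox7b both rounded to 9.71. Of genes above background 19.3% lay above and 10.8% below. Arrays with the same replicate number differed in the same direction at all 3 numbers for 13 subunits higher and 13 lower. Both are 16.0% of the subunits, against 35.8% and 16.8% of all genes and 35.4% and 23.2% of genes above background. The genes Ndufa5, Ndufs5, Ndufb10, Ndufs3, Ndufs7 and Uqcrc2 are outside the rule for named genes and are given because the counts are small.

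Complex II, succinate dehydrogenase, was the complex with the lowest median, -0.16, and 4 of its 4 subunits had a negative difference. These 4 signs were kept under quantile normalization, with a median of -0.13, and with arrays centred on their median, with a median of -0.23. They were also kept when any 1 array or both replicate 1 arrays were left out, with medians between -0.25 and -0.10. None of the 4 passed the test.

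Sdha, the flavoprotein that oxidizes succinate, had log2 signals of 9.63, 9.33 and 9.39 in ionomycin replicates 1, 2 and 3 and 9.81, 9.64 and 9.59 in the naive ones. The highest ionomycin array, replicate 1, lay between the naive arrays, so the groups overlapped, while each ionomycin array was below the naive array of its number. The difference was -0.23 ± 0.10 (SE, n = 3 each; limma adjusted p = 0.333), with an adjusted p of 0.131 under the block and 0.0442 with array weights in limma. Sdhd, one of the membrane anchors that bind ubiquinone, had 10.24, 9.86 and 9.88 in ionomycin arrays and 10.29, 10.22 and 10.07 in naive arrays. Again replicate 1 was the highest array of each group and the groups overlapped. Its difference was -0.20 ± 0.12 (limma adjusted p = 0.431). Sdhc, the other membrane anchor, and Sdhb, the iron-sulfur subunit, differed less, by -0.12 ± 0.09 and -0.08 ± 0.08, with limma adjusted p of 0.492 and 0.591. The Sdhc values at replicate number 3 were 9.16 in the ionomycin array and 9.15 in the naive array, the only complex II pair that was not lower after ionomycin.

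**Figure D2:**
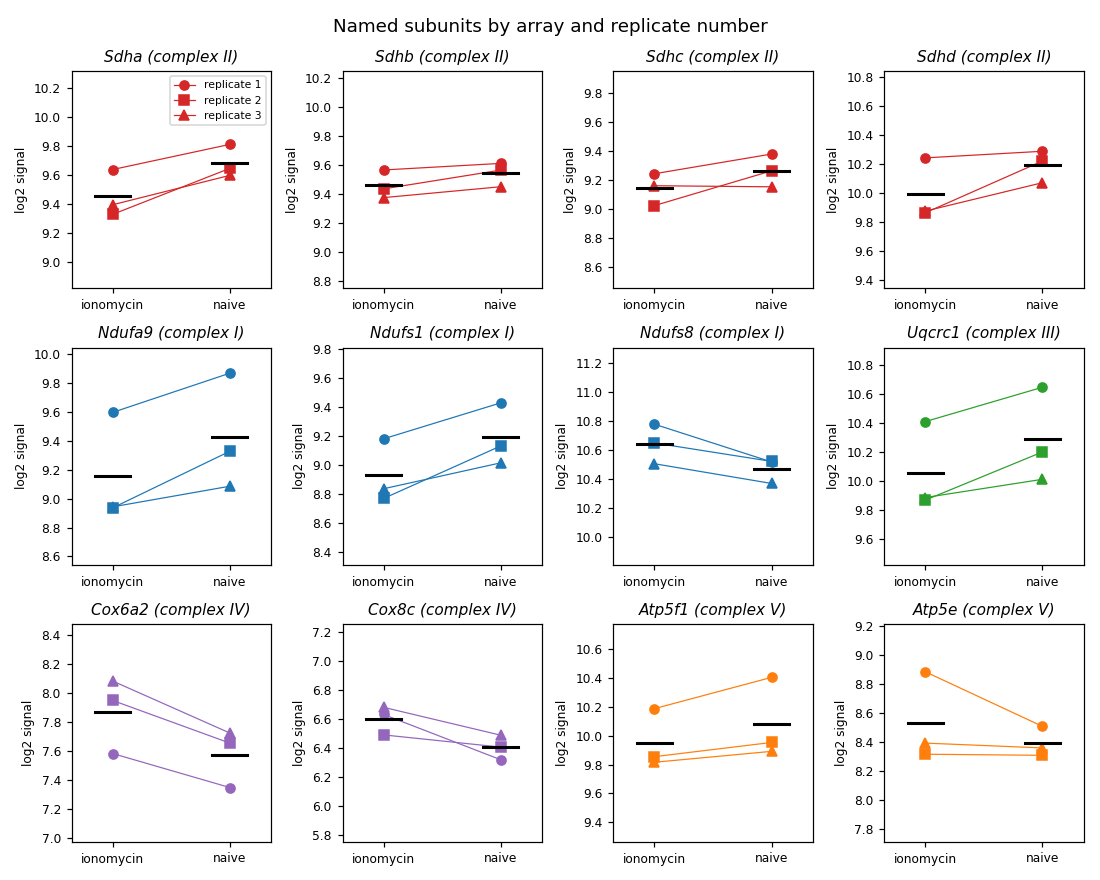
Log2 signal of 12 named subunits in each array, ionomycin left and naive right, with lines joining arrays of the same replicate number and black bars for the means of 3 arrays. Each panel spans the same range of signal. In Sdha, Sdhb and Sdhd all 3 lines lead to a higher naive value, and in most panels the replicate 1 array lies highest in both groups.

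Promoters of complex II genes are shown because all its members leaned the same way and because respiratory genes are classic targets of the factors NRF1, GABP (an ETS factor, also called NRF2) and YY1. Each is the 300-base RefSeq promoter window of mouse build GRCm38.p6, which runs across the start of the gene and lies mostly before it, written 5′ to 3′ on the strand of the gene. Capitals mark exact matches on either strand to the NRF1 core GCGCATGC, the ETS core CCGGAAG or the YY1 core AAGATGG. Windows were matched for Sdha, Sdhb and Sdhd but not for Sdhc. The YY1 letters were not found in these 3 windows.
Sdha, chr13:74350191-74350490, minus strand: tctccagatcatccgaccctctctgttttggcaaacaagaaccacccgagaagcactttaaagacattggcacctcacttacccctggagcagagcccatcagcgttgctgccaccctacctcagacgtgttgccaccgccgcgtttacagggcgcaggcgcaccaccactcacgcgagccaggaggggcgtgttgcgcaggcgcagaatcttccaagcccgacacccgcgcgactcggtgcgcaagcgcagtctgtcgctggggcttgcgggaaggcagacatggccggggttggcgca
Sdhb, chr4:140961021-140961320, plus strand: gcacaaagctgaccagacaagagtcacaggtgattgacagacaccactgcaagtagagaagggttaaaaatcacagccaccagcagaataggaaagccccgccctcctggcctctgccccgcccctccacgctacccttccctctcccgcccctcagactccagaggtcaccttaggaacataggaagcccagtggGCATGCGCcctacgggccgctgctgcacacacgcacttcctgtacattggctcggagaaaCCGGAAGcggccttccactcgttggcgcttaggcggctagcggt
Sdhd, chr9:50603800-50604099, minus strand: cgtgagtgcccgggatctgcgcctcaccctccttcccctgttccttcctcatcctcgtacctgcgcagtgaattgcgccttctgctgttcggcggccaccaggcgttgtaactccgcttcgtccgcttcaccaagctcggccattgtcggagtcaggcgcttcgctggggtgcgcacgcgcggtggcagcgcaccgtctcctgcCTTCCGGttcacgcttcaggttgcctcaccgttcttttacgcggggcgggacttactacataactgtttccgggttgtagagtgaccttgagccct
The window of Sdhb, on chromosome 4, held 1 NRF1 core and 1 ETS core, that of Sdhd 1 ETS core, and that of Sdha none of the 3. A match is a description of letters and not a binding site, and no match says only that these letters are not in this window.

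A promoter window was matched for 65 of the 81 subunit genes. The NRF1 core was in at least 1 window of 9 genes, or 13.8%, against 3.05% of the 27025 genes with a window in that table, the ETS core in 17 genes, or 26.2%, against 9.93%, and the YY1 core in 11, or 16.9%, against 7.28%. The TATA letters TATAAA were in 8, or 12.3%, against 15.7%. The subunit windows had a median GC content of 57.3%, against 52.7% for all windows, so the shares are not from windows of equal base composition. By complex, the NRF1 core was in 2 of 28 genes of complex I, 1 of 3 of complex II, 2 of 5 of complex III, 1 of 14 of complex IV and 3 of 15 of complex V.

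Complex I, NADH dehydrogenase, had a median difference of -0.02, with 11 subunits positive and 21 negative and 0 called. The split of signs depended on the scaling, with 16 positive and 16 negative after quantile normalization and 7 positive and 25 negative after centring. It also depended on single arrays, with 6 positive and a median of -0.12 without ionomycin replicate 1 and 17 positive and a median of 0.0046 without naive replicate 1. Some of its core subunits carry the flavin and the iron-sulfur clusters. Of the 6 core subunits analysed here 5 were negative, with a median of -0.13 (4 of 6 after quantile normalization). Ndufs1, which binds iron-sulfur clusters in the part that takes up electrons from NADH, had 9.18, 8.77 and 8.84 in ionomycin arrays and 9.43, 9.13 and 9.02 in naive arrays. Each ionomycin array was below the naive array of its number, and the groups overlapped through the ionomycin replicate 1 array. The difference was -0.26 ± 0.15 (SE, n = 3 each; limma adjusted p = 0.404, and 0.124 with the block).

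Ndufs8, a core subunit with iron-sulfur clusters next to the ubiquinone site, was the core subunit with a positive difference. It had 10.78, 10.65 and 10.50 in ionomycin arrays and 10.52, 10.52 and 10.37 in naive arrays. The groups overlapped by the ionomycin replicate 3 array alone, and every pair was higher after ionomycin. Its difference was 0.17 ± 0.09 (limma adjusted p = 0.369). Ndufs3 and Ndufs7, core subunits of the arm that leads to ubiquinone, differed by -0.12 ± 0.05 and -0.17 ± 0.09, with limma adjusted p of 0.340 and 0.362. With array weights these were -0.16 and -0.23, with limma adjusted p of 0.0486 and 0.0496.

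Among accessory subunits of complex I, Ndufa9, which sits near the ubiquinone site, had the largest difference, -0.27 ± 0.26 (limma adjusted p = 0.609, and 0.132 with the block). Its signals were 9.59, 8.94 and 8.94 in ionomycin arrays and 9.86, 9.33 and 9.08 in naive arrays. The spread between replicate 1 and the others was larger than the difference between the groups. The 11 subunits of the NDUFA series, most of them small accessory proteins spread over both arms, had a median difference of -0.0025 with 6 negative, and the 9 of the NDUFB series, which belong to the membrane arm, -0.03 with 7 negative; after quantile normalization 4 and 5 were negative. Ndufb9, an accessory subunit of the membrane arm, differed by -0.10 ± 0.12 (limma adjusted p = 0.673). The other 6 accessory subunits had a median of 0.01.

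Complex III, the cytochrome bc1 complex, had 5 positive and 3 negative subunits, a median of 0.02 and 0 called; after centring 2 were positive and 6 negative. Its median was -0.07 without ionomycin replicate 1, 0.08 without naive replicate 1 and -0.04 without both. Uqcrc1, a core protein of the matrix side, had 10.41, 9.87 and 9.88 in ionomycin arrays and 10.64, 10.20 and 10.01 in naive arrays. Every pair was lower after ionomycin, and replicate 1 was again the highest array of each group. Its difference was -0.23 ± 0.21 (limma adjusted p = 0.589, and 0.140 with the block). Its partner core protein Uqcrc2 differed by -0.05 ± 0.05 (limma adjusted p = 0.640). The Rieske iron-sulfur protein Uqcrfs1, which takes electrons from ubiquinol, differed by 0.10 ± 0.08, and the small subunits Uqcrq and Uqcrb by 0.11 ± 0.08 and -0.05 ± 0.13, with limma adjusted p between 0.499 and 0.843. The promoter window of Uqcrc1 is shown as one in which the NRF1 core occurs on both strands, overlapping, so that its letters form 1 palindromic run, in capitals.
Uqcrc1, chr9:108936398-108936697, plus strand: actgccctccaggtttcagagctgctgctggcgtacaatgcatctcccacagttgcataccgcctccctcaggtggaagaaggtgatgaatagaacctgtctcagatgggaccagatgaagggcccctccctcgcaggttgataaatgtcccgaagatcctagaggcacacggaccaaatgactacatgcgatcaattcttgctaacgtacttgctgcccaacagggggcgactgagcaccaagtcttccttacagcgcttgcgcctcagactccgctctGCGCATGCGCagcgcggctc

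Complex IV, cytochrome c oxidase, had the highest median of the 5 complexes, 0.08, with 14 subunits positive and 5 negative and 0 called. After centring, 11 were positive and 8 negative, with a median of 0.01. Without ionomycin replicate 1 the median was -0.0040, with 9 positive and 10 negative, without naive replicate 1 it was 0.12, with 15 positive and 4 negative, and without both it was 0.02. Several of its subunits exist as pairs of a widely expressed form and a form known from muscle, lung or testis. The 7 restricted forms had a median of 0.12, with 6 of 7 positive (5 after quantile normalization or centring) and 5 higher at all 3 replicate numbers, and the 12 widely expressed subunits had a median of 0.07 with 8 positive (6 after centring). Over all genes 64.6% were positive and 35.8% higher at all 3 numbers. The restricted forms were dim, with array values between 4.83 and 8.08. Of the 2 B cell and 3 T cell markers measured, 1 of each list was above background. These markers were all positive too, with medians of 0.14 and 0.10. The 5 neutrophil markers, with array values between 4.33 and 7.66, were mixed, with 3 positive and 2 negative. Of the restricted forms Cox7b2 and Cox8b were not above background. Without both replicate 1 arrays the medians were 0.06 for the restricted forms and -0.0066 for the widely expressed ones.

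Cox6a2, the heart and skeletal muscle form of a regulatory subunit, had 7.58, 7.95 and 8.08 in ionomycin arrays and 7.35, 7.65 and 7.72 in naive arrays. The replicate 1 array was the lowest of each group, and through it the groups overlapped, while every pair was higher after ionomycin. The difference was 0.30 ± 0.16, a fold change of 1.23 (SE, n = 3 each; limma adjusted p = 0.383), with an adjusted p in limma of 0.0988 under the block and 0.0922 without both replicate 1 arrays. Its widely expressed counterpart Cox6a1 differed by 0.07 ± 0.15 (limma adjusted p = 0.829). Cox8c, known from testis, had 6.63, 6.49 and 6.68 in ionomycin arrays and 6.32, 6.41 and 6.49 in naive arrays. The groups did not overlap, but the lowest ionomycin array and the highest naive array both rounded to 6.49, and the levels were close to the background of 6.05. Its difference was 0.20 ± 0.08 (limma adjusted p = 0.307). The other forms of this subunit differed by 0.10 ± 0.14 for Cox8a, the widely expressed one, and by 0.00054 ± 0.08 for Cox8b, the muscle one, which was not above background.

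The remaining paralogue sets showed differences of the same order. Cox7a1, the muscle form, differed by 0.13 ± 0.08, Cox7a2, the widely expressed form, by -0.0095 ± 0.25, and Cox7a2l by 0.06 ± 0.22. Cox4i1, the common form of a nuclear subunit that regulates the enzyme, differed by 0.11 ± 0.08 and Cox4i2, its lung form, by 0.08 ± 0.09. Cox6b1 and its testis form Cox6b2 differed by 0.01 ± 0.17 and 0.12 ± 0.09. Cox7b, a small membrane subunit, differed by -0.11 ± 0.06 and its paralogue Cox7b2, known from testis and not above background here, by -0.07 ± 0.08. The limma adjusted p of these 9 genes lay between 0.390 and 0.986, and cross-hybridization between close paralogues was not tested.

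Complex V had a median of 0.0079, 11 subunits positive, 7 negative (4 positive and 14 negative after centring) and 0 called. Its 4 F1 subunits, which belong to the catalytic head or the central stalk, had a median of 0.0070. The split of signs over complex V rested on single arrays. Without ionomycin replicate 1, 1 subunit was positive and 17 negative. Leaving out naive replicate 1 instead, 16 were positive and 2 negative. Without both replicate 1 arrays 7 were positive and 11 negative, with a median of -0.0082. Atp5e, the epsilon subunit of the central stalk, had 8.89, 8.32 and 8.39 in ionomycin arrays and 8.51, 8.31 and 8.36 in naive arrays. The replicate 1 array of each group was high, and more so in the ionomycin group, and the groups overlapped. The difference was 0.14 ± 0.16 (limma adjusted p = 0.665). Atp5f1, the b subunit of the peripheral stalk, which holds the head in place, had 10.19, 9.85 and 9.82 in ionomycin arrays and 10.40, 9.95 and 9.89 in naive arrays. Each pair was lower after ionomycin. The difference was -0.13 ± 0.17 (limma adjusted p = 0.705, and 0.235 with the block).

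The genes Atp5g1, Atp5g2 and Atp5g3 encode the same mature c subunit, of which the proton-carrying ring is built. They differed by 0.08 ± 0.21, 0.0030 ± 0.07 and 0.04 ± 0.19, with limma adjusted p between 0.857 and 0.985. Atp5mpl, a small membrane subunit, differed by 0.10 ± 0.12 (limma adjusted p = 0.705). The row used for Atp5l, a membrane subunit, carries chromosome 5 in its identifier while RefSeq places the gene on chromosome 9, and whether it reports another copy was not tested. The other 2 rows of Atp5l, on chromosome 9, differed by -0.07 and 0.21, and the row used by -0.0043. Atp5l2, also counted in complex V, had no Entrez ID to match to RefSeq, and whether it is a pseudogene was not tested.

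The replicate 1 arrays differed from the other arrays of their group by more, for most subunits, than ionomycin arrays differed from naive ones. In both groups 61 of the 81 subunits were higher in the replicate 1 array than in the mean of replicates 2 and 3. This is 75.3% against 23.9% of all genes, and 5 were lower in both groups, 6.17% against 47.3%. Among genes above background these shares were 29.9% and 45.6%. The median offset of replicate 1 was 0.28 in ionomycin arrays and 0.14 in naive arrays, against -0.03 and -0.07 over all genes. The size of the offset, averaged over the groups, exceeded the size of the ionomycin difference in 66 of 81 subunits, 81.5% against 51.5% of all genes. Across the 81 subunits the offsets of the 2 groups correlated at 0.770, as a description, since members share arrays; over all genes the value was 0.711.

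The offset was not the same for every subunit. In ionomycin arrays it was highest for Cox7a2, at 0.79, against 0.48 in naive arrays, and it was 0.66 in both groups for Ndufa9. Ndufa4 had 10.89, 10.23 and 10.20 in ionomycin arrays and 10.90, 10.33 and 10.16 in naive arrays, with a difference between the groups of -0.02 ± 0.26. The replicate 1 array of each group was about equally high, and above the other arrays of its group. The 5 subunits lower in both replicate 1 arrays were Ndufa6, Uqcrh, Cox4i2, Cox6a2 and Cox7a2l. Ndufa6, an accessory subunit of complex I that binds an acyl carrier protein, had 9.65, 10.07 and 10.11 in ionomycin arrays and 9.41, 10.16 and 10.18 in naive arrays, and a difference of 0.02 ± 0.24. Its offsets of -0.44 and -0.76 ran against those of most other complex I members. The genes Ndufa4, Ndufa6 and Uqcrh were chosen after their values were seen.

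**Figure D3:**
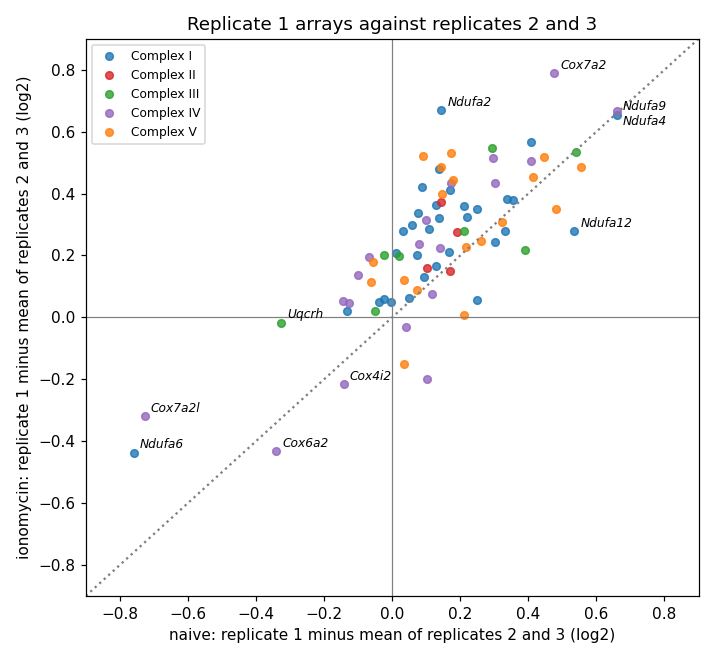
Offset of the replicate 1 array from the mean of replicates 2 and 3 (log2), in ionomycin arrays on the vertical axis and naive arrays on the horizontal axis, 1 point per subunit coloured by complex, with the dotted line where both are equal. Of 81 subunits, 61 lie above 0 on both axes, and 5 lie below 0 on both.

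By complex, replicate 1 was higher in both groups for 27 of 32 subunits in complex I, 4 of 4 in complex II, 5 of 8 in complex III, 10 of 19 in complex IV and 15 of 18 in complex V. In complex IV this held for 9 of the 12 widely expressed subunits and 1 of the 7 restricted forms. It also held for 13 of 14 genes of the tricarboxylic acid (TCA) cycle, and for 1 of 5 subunits encoded in mitochondrial DNA. The median difference between arrays of the same number was 0.08 at number 1, -0.06 at number 2 and -0.0075 at number 3 for subunits, against 0.08, 0.05 and 0.03 for all genes. Without both replicate 1 arrays the difference took the opposite sign for 18 of the 81 subunits, 4 of complex I, 0 of complex II, 4 of complex III, 4 of complex IV and 6 of complex V. The subunit median over arrays was 9.43, 9.03 and 9.16 in ionomycin replicates 1, 2 and 3 and 9.38, 9.24 and 9.11 in the naive ones. In these bulk samples fewer cells of a type and less RNA per cell cannot be told apart, and the part of basophil and macrophage markers in the replicate 1 offset was not tested.

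**Figure D4:**
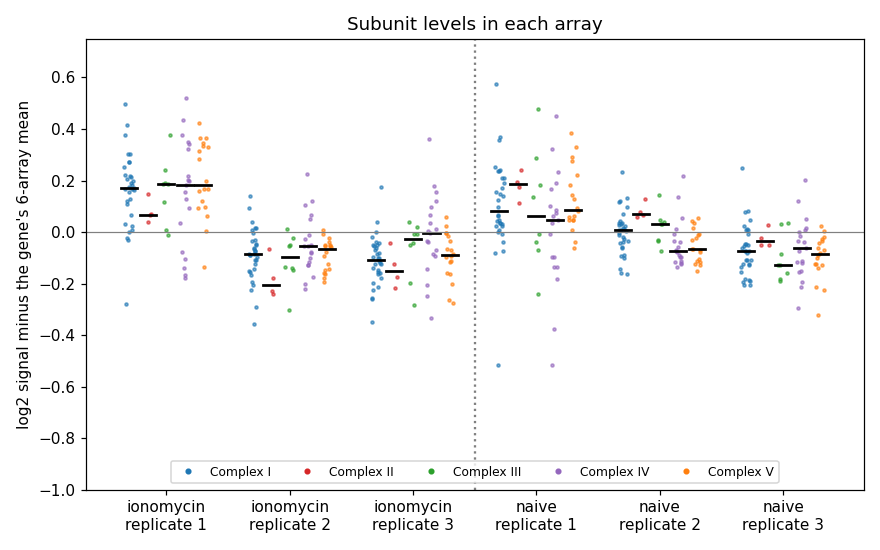
Log2 signal of each subunit in each array minus the gene's mean over 6 arrays, ionomycin arrays left of the dotted line and naive arrays right of it, coloured by complex, with black bars at the median of each complex. Replicate 1 arrays lie above 0 for most subunits in both groups, while the complex II subunits lie below 0 in ionomycin replicates 2 and 3.

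Genes that serve the same pathway were described from lists that the subunit symbols do not include. Of 10 measured carriers and other subunits 0 were called, and 5 were positive and 5 negative. Cycs, which encodes cytochrome c, the carrier between complexes III and IV, had 10.71, 10.16 and 10.13 in ionomycin arrays and 10.40, 9.88 and 9.82 in naive arrays. Each pair was higher after ionomycin by about the same amount, and the groups overlapped through the naive replicate 1 array. The difference was 0.30 ± 0.22 (SE, n = 3 each; limma adjusted p = 0.495, and 0.0912 with the block). Higd2a, a factor of respiratory supercomplexes, differed by 0.11 ± 0.07 (limma adjusted p = 0.450). Of 5 measured subunits encoded in mitochondrial DNA 0 were called. COX1, the catalytic subunit of complex IV, differed by -0.05 ± 0.14, and ND3, a complex I subunit, by -0.07 ± 0.12. The ND3 value rested on replicate 1, and without both replicate 1 arrays it was 0.13.

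Of the 16 measured assembly factors of complex I, 0 were called, 13 were negative and 9 were lower at all 3 replicate numbers. Their median was -0.12, against 0.05 over all genes. Over all genes 35.4% were negative and 16.8% lower at all 3 numbers. Of genes above background, as all 16 factors were, 41.3% were negative and 23.2% lower at all 3 numbers. After quantile normalization 14 were negative and after centring 15, and without naive replicate 1 the median was -0.06 with 11 negative. Without both replicate 1 arrays 2 of the 16 were called lower and 0 higher, in a setting that called 2.83% of all genes, 429 of 30102 lower. Ndufaf3, which acts early on the arm leading to ubiquinone, differed by -0.28 ± 0.13 and Ndufaf8, a partner of another assembly factor in human cells, by 0.04 ± 0.05, with limma adjusted p of 0.356 and 0.676. Ndufaf7, a methyltransferase that modifies a core subunit, is outside the rule for named genes and was chosen after its values were seen. It had 7.50, 7.51 and 7.44 in ionomycin arrays and 7.99, 7.97 and 7.84 in naive arrays. The groups did not overlap, and the lowest naive array lay well above the highest ionomycin array. The difference was -0.45 ± 0.06 (limma adjusted p = 0.0626), with an adjusted p in limma of 0.0602 under the block and 0.0491 without both replicate 1 arrays. The other one called there was Tmem126b, which acts in assembly of the membrane arm and was also chosen after its values were seen; it differed by -0.34 ± 0.11 over all 6 arrays (limma adjusted p = 0.245) and by -0.41 without both replicate 1 arrays (limma adjusted p = 0.0498).

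Atpaf1, a chaperone that holds the beta subunit while the F1 head of complex V is built, had 7.87, 8.10 and 8.06 in ionomycin arrays and 8.32, 8.47 and 8.46 in naive arrays. The groups did not overlap. The difference was -0.40 ± 0.08 (limma adjusted p = 0.136), with an adjusted p of 0.0684 in limma under the block. It passed the threshold without both replicate 1 arrays, at -0.38 with a limma adjusted p of 0.0407. That setting called 2.83% of all genes. Tmem70, needed for complex V assembly, differed by -0.19 ± 0.08 (limma adjusted p = 0.336). For complex III, Bcs1l, the ATPase that inserts the Rieske protein, differed by -0.28 ± 0.09 and Uqcc3, which acts in cytochrome b assembly, by -0.13 ± 0.14. For complex IV, Cox15, which acts in the synthesis of haem A, differed by -0.24 ± 0.09 and Coa5 by 0.01 ± 0.06. For complex II, Sdhaf2, which attaches the flavin to Sdha, differed by -0.15 ± 0.07 and Sdhaf1, which acts on the iron-sulfur subunit, by 0.02 ± 0.09. None of these 6 genes passed, with limma adjusted p between 0.261 and 0.930, and 0 of the 4, 4, 17 and 3 measured assembly factors of complexes II, III, IV and V were called.

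Of 14 measured genes of the TCA cycle and pyruvate dehydrogenase 0 were called. Their median was -0.14, with 11 negative and 9 lower at all 3 replicate numbers, and 12 and 11 were negative after quantile normalization and centring. Over all genes 35.4% were negative and 16.8% lower at all 3 numbers. Of genes above background, as all 14 were, 41.3% were negative and 23.2% lower at all 3 numbers. Without naive replicate 1 the TCA median was 0.02 with 6 negative, and without both replicate 1 arrays -0.11 with 12 negative. Cs, citrate synthase, differed by -0.13 ± 0.09 and Mdh2, malate dehydrogenase, by 0.08 ± 0.10. Of 17 measured regulators of respiratory gene expression 0 were called and 13 were negative (14 after quantile normalization, 17 after centring), with a median of -0.07. This lean rested on replicate 1: without both replicate 1 arrays 7 were negative and 10 positive, with a median of 0.02. Gabpa, the DNA-binding subunit of GABP, which binds the ETS core, had 8.53, 8.42 and 8.41 in ionomycin arrays and 8.94, 8.71 and 8.67 in naive arrays. The groups did not overlap, and the difference was -0.32 ± 0.09 (limma adjusted p = 0.219, and 0.0985 with the block). Yy1, a zinc finger factor that also binds promoters outside this pathway, differed by -0.08 ± 0.08 (limma adjusted p = 0.601), and by 0.02 without both replicate 1 arrays.

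**Figure D5:**
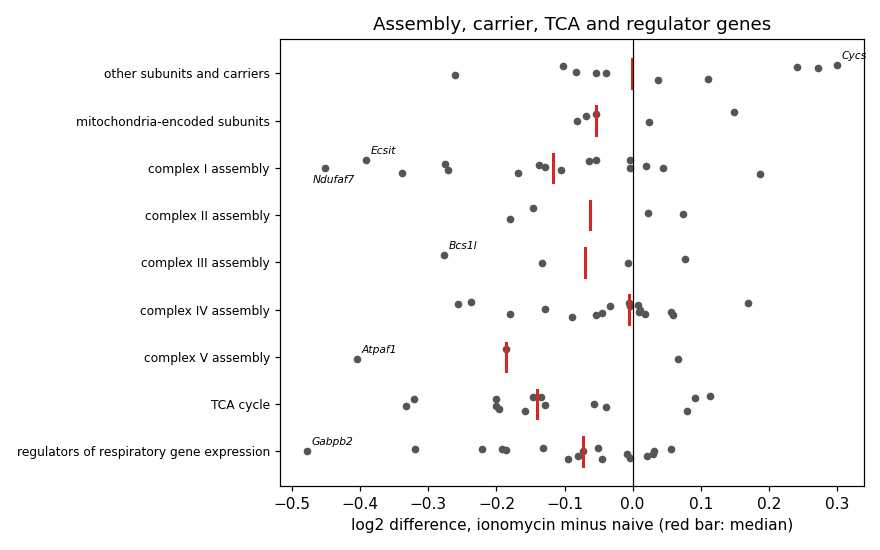
Log2 difference, ionomycin minus naive, of each measured gene in 9 lists of carriers, mitochondria-encoded subunits, assembly factors, TCA cycle genes and regulators, with red bars at the list medians. Points sit at an arbitrary height within their list, and names mark a few genes. The medians run from -0.19 for complex V assembly to -0.0011 for other subunits and carriers, and 0 of these genes were called over all 6 arrays.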

How the data were processed

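Total RNA of 6 BMMC samples, 3 ionomycin and 3 naive, was labelled for whole-transcript Affymetrix arrays, per the labels' protocols. The values used are the authors' deposited log2 signals, 65770 rows with 0 missing values. The submitters' processing notes name the package oligo, without a version, and the sources used here give neither normalization nor build. The log2 scale was read from the range of the values, 3.01 to 14.6. A normalization that acts on all rows can move small differences: over all genes the median log2 difference was 0.05 in the deposited values, 0.01 with quantile normalization and -0.01 with arrays centred on their medians.

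Rows were named through the platform annotation: 30439 had 1 symbol, 2146 several and 33185 none, and 827 symbols were updated through Entrez IDs to RefSeq genes of GRCm38.p6. Keeping the row with the highest mean for 252 genes with several rows gave 30102 genes. The 81 subunit genes came from 85 rows, and 4 rows that name a subunit together with another gene were not used; a few other subunits are not reported here. RefSeq GRCm38.p6 also supplied the promoter windows.

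Ionomycin was compared with naive by limma 3.58.1 (lmFit and eBayes, R 4.3.3) over all 6 arrays and 30102 genes, two-sided, with Benjamini-Hochberg adjustment and a threshold of 0.05. All adjusted p are from limma, differences are ionomycin minus naive, and errors are moderated standard errors (SE). The sample titles gave each array's group and number. Deviations of same-numbered arrays from their group means correlated at 0.711, 0.476 and 0.469 at numbers 1, 2 and 3. Crossing numbers 2 and 3 gave 0.481 and 0.524, so these values show no pairing particular to number 2 or 3. A fit with replicate number as a block was added, and pairs at those numbers follow the labels alone.

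The members, lists, tests and the rule for named genes were chosen with earlier results of these data known. The rule named members past the threshold, in each complex the 3 largest differences above background and the member with the highest mean signal, the complex II subunits, the paralogue sets of complexes IV and V, and up to 3 called genes, or else the 2 with the highest mean signal, from each list. Of 32 subunits so named and 50 genes in all, 0 were called. Of the marker lists, 4 of 5 neutrophil, 5 of 5 macrophage, 1 of 1 erythroid, 1 of 2 B cell and 1 of 3 T cell genes measured were above background, and 0 were called. Without both replicate 1 arrays the mast cell marker Hdc was called higher (limma adjusted p 0.0119). The mast cell marker Ms4a2 and the macrophage marker Cd68 were called lower there (limma adjusted p 0.0231 and 0.0343). That setting called 2.83% of all genes, and these 3 markers were chosen after their values were seen.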

Additional observations from a re-analysis of the deposited data

How the results depend on the processing

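The counts of subunits called higher and lower, 0 and 0, stayed at 0 under the replicate block, quantile normalization, centring, the filter on dim genes, trended and robust eBayes, averaging of a gene's rows, testing of all rows and no moderation, and when each array was left out in turn. With array weights the count called lower was 3 (Sdha, Ndufs3 and Ndufs7) and that called higher 0; limma then gave the replicate 1 arrays weights of 0.416 for ionomycin and 0.245 for naive, and called 3894 of all genes, against 105 without weights. Under 2 alternatives chosen after seeing the data the counts were also 0 and 0: without both replicate 1 arrays, where 852 of all genes were called, and with a block that separates only replicate 1 from the others, where 1421 were called and the smallest adjusted p of a subunit was 0.0532, for Cox6a2. The replicate block called 152 of all genes and changed no call of a subunit.

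The median log2 difference of the subunits, 0.00054, was 0.0088 after quantile normalization, -0.07 after centring, -0.04 with array weights and -0.03 without both replicate 1 arrays. It ran between -0.10 without ionomycin replicate 1 and 0.06 without naive replicate 1, so its sign rests on single arrays. The counts of calls stayed at 0 whichever single array was left out. Signs of single differences were kept under both scalings for 23 of 32 subunits of complex I, 4 of 4 of complex II, 5 of 8 of complex III, 14 of 19 of complex IV and 10 of 18 of complex V. Among other named genes, array weights brought Atpaf1 (adjusted p 0.0129), Bcs1l (0.0288), Cox15 (0.0384), Gabpa (0.0230) and Tmem70 (0.0433) below the threshold, all lower, and the block that separates replicate 1 brought Atpaf1 (0.0172), Gabpa (0.0370) and Cycs (0.0345, higher). Cox7b2 and Cox8b were not above background, which limits what their differences can show.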
